A study of Homo sapiens with 8 samples.

Results

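The genes described here encode the cleavage stimulation factor CstF (CSTF1, CSTF2, CSTF2T and CSTF3), cleavage factor IIm (PCF11 and CLP1) and RBBP6. They are 7 of the 78932 gene identifiers in the deposited tables, and they were taken by symbol as members of these complexes. All 7 passed the filter on low counts. The cells were HCT116, a human colorectal cancer line, in which NUDT21 carries a dTAG degradation tag. The product of NUDT21 is the UGUA-binding subunit of cleavage factor Im (CFIm), which acts upstream of poly(A) sites. One group of 4 libraries came from dTAG-NUDT21 cells given DMSO and JTE-607, and the other group of 4 from the same cells given dTAGV1 and JTE-607. dTAGV1 directs tagged proteins to degradation, DMSO is its solvent, and JTE-607 inhibits CPSF73 (the product of CPSF3), the nuclease that cuts pre-mRNA at poly(A) sites. Both groups therefore carried the tag and received the cleavage inhibitor, and an effect of dTAGV1 without JTE-607 was not measured. Doses, durations and whether the line is 1 clone are not given in the sources used here.

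Most human messenger RNAs acquire their 3′ ends by cleavage of the nascent transcript followed by addition of a poly(A) tail. CPSF reads the AAUAAA signal and cuts the RNA, CstF binds a U- or GU-rich element downstream of the cut, and cleavage factor IIm joins the machinery to the C-terminal domain of RNA polymerase II. RBBP6 is a ubiquitin ligase that binds the core of CPSF and activates cleavage, and its product is also known to bind RB1 and p53. CSTF3, PCF11 and RBBP6 are known to make short transcripts that end at poly(A) sites inside an intron.

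The libraries were read near transcript 3′ ends, and levels were not divided by gene length. A read does not mark the exact end of a transcript. Levels are given as CPM, the count in each 1000000 counts of a library, after scaling by TMM. Libraries held 3447842 to 4291256 counts on the strand of the gene. NUDT21 itself had 104 to 139 counts in the DMSO libraries and 15 to 43 in the dTAGV1 libraries, a log2 fold change of -1.95, and so the RNA of the tagged gene followed the labels. The tag works on protein, and protein levels were not analysed here. Of 8 markers of colorectal epithelium, EPCAM, KRT8, KRT18, KRT19, CDH1 and CDX2 were present in every library, CDX1 had 0 counts in each and VIL1 had at most 3. Among 9 markers of other cell types, only COL1A1 exceeded 10 CPM in any library, at 11.2 to 19.9 CPM, and the summed level of the 9 was 19.8 to 24.0 CPM with DMSO and 15.7 to 22.7 CPM with dTAGV1. DCN had 0 counts in all libraries, and PTPRC, PECAM1 and CDH5 had at most 2. The summed level of the 8 epithelial markers was 1575 to 1831 CPM with DMSO and 1253 to 1353 CPM with dTAGV1. Mean levels of KRT19 (786 and 499 CPM), KRT18 (408 and 269) and KRT8 (175 and 135) were lower with dTAGV1, EPCAM was higher (273 and 331) and CDH1 was similar (57.9 and 58.4). The part of these levels in the results below was not tested. The labels number the libraries as replicates without saying that they came from separate cultures. The p-values therefore set group differences against the spread between these libraries, which may be technical.

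The annotated 3′ ends of the genes are shown first, since the assay reads, and the tagged protein acts, near them. The lines give the last 30 bases of the principal transcript of 6 of the genes in GENCODE 29, 5′ to 3′, with the poly(A) signal in capitals.
CSTF1: gaAATAAActttatatacaatgataagcta
CSTF2: tctgtgacttgaAATAAActttgaacacaa
CSTF2T: atgcagaaAATAAAgatacaattaaggctg
CSTF3: tcctttaaaaAATAAAaggattcagaaaca
PCF11: gttgacctaagaacagctgagtatgggtgc
CLP1: tttAATAAAtatttttgccatatcatagaa
The canonical signal AATAAA lay in the last 40 bases of 5 of these 6 transcripts, against 57.7% of 19822 principal protein-coding transcripts. The exception was PCF11, whose last 40 bases held none of the 10 hexamers searched, AATAAA or ATTAAA or AGTAAA or ACTAAA or TATAAA or CATAAA or GATAAA or AATATA or AATACA or AATAGA. The CFIm element in its DNA form, TGTA, was searched on the transcript strand in the last 100 bases. CSTF3 held 2 copies, starting 67 and 51 bases before the end, and at least 2 copies occur in 18.1% of the 19822 transcripts. CSTF2, CSTF2T and PCF11 held 1 copy each, and CSTF1 and CLP1 held 0, where 50.3% of transcripts hold at least 1. These matches describe letters of the annotation, and no use of single poly(A) sites was measured.

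With dTAGV1, transcripts of the CstF genes CSTF2, CSTF2T and CSTF3 fell, and those of PCF11 and RBBP6 rose. CSTF2T fell to 0.681 of its DMSO level and PCF11 rose by 1.46-fold, changes of nearly the same size on the log2 scale (-0.55 and 0.55). CSTF1 and CLP1 did not pass the test. In all, 5 of the 7 genes passed the quasi-likelihood F test of edgeR at an adjusted p (Benjamini-Hochberg) under 0.05, where 57.9% of the 12618 genes tested did so. Among them 3 were lower, against a background of 28.5%, and 2 were higher, against 29.4%. Among genes averaging 100 counts or more, 64.7% passed, as did 4 of the 5 genes of the set tested there (CSTF2, CSTF3, PCF11 and RBBP6, but not CSTF1). The CPM of both groups did not overlap for 4 of the 7 genes, and for 50.9% of all genes tested. The share of tested genes that changed by more, in absolute log2 fold change, ran from 38.4% for CSTF2T to 75.7% for CSTF1. The median log2 fold change was -0.19 over the 7 genes and 0.01 over all genes tested. In bulk RNA, less RNA in each cell and fewer cells that express a gene cannot be told apart.

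**Figure D1:**
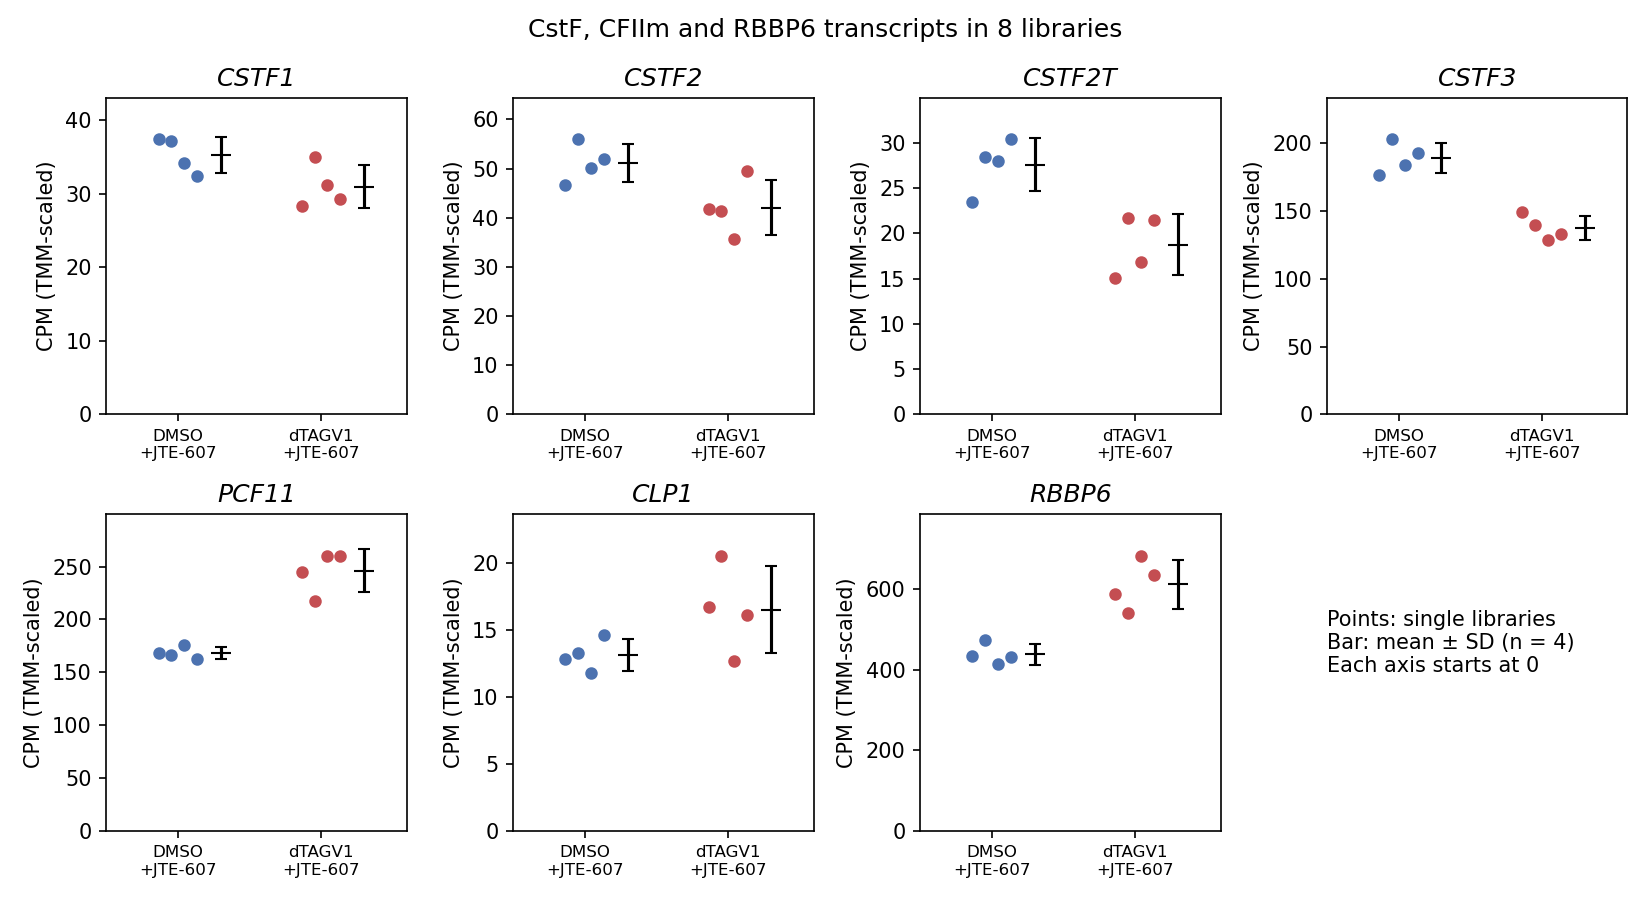
Expression of the CstF, CFIIm and RBBP6 genes in CPM (vertical axes, each from 0) in 4 DMSO+JTE-607 libraries (blue) and 4 dTAGV1+JTE-607 libraries (red), with the mean ± SD beside the points. The groups are apart for CSTF2T, CSTF3, PCF11 and RBBP6, and overlap for CSTF1, CSTF2 and CLP1.

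CstF is built from 3 kinds of subunit. CSTF3 encodes the scaffold, which dimerises and joins the other subunits to CPSF. CSTF3 (ENSG00000176102; GRCh38 chr11:33077188-33162371, minus strand, protein-coding) had 177, 203, 184 and 193 CPM in DMSO replicates 1 to 4. In dTAGV1 replicates 1 to 4 it had 149, 140, 128 and 133 CPM, so that every dTAGV1 library lay under every DMSO library. The mean fell from 189 ± 11.4 to 138 ± 9.10 CPM (SD, n = 4 each). As a log2 fold change this was -0.46 ± 0.08 (standard error; adjusted p = 1.28e-05 in edgeR).

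CSTF2 encodes the subunit that contacts the downstream element, and it also takes part in processing of histone pre-mRNA. CSTF2 (ENSG00000101811; chrX:100820359-100840932, plus strand, protein-coding) had 46.7, 56.0, 50.2 and 51.9 CPM with DMSO. With dTAGV1 it had 41.7, 41.4, 35.6 and 49.4 CPM, and replicate 4 of that group reached above DMSO replicate 1, the lowest of its group. The mean moved from 51.2 ± 3.84 to 42.0 ± 5.66 CPM (SD, n = 4 each). As a log2 fold change this was -0.28 ± 0.11 (standard error; adjusted p = 0.0326 in edgeR). This call was close to the threshold. DESeq2 gave an adjusted p of 0.0507. The adjusted p in edgeR was 0.102, 0.0604, 0.0509 and 0.113 without DMSO replicate 2, DMSO replicate 4, dTAGV1 replicate 2 and dTAGV1 replicate 3.

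CSTF2T is an intronless copy of CSTF2 that encodes a paralogous RNA-binding subunit. It has 1 exon (ENSG00000177613; chr10:51695487-51699591, minus strand, protein-coding) and lies within PRKG1, on the opposite strand. Its levels were 23.5, 28.5, 28.0 and 30.4 CPM with DMSO, and 15.0, 21.7, 16.8 and 21.5 CPM with dTAGV1. The groups did not overlap. The mean fell from 27.6 ± 2.92 to 18.8 ± 3.39 CPM (SD, n = 4 each). As a log2 fold change this was -0.55 ± 0.15 (standard error; adjusted p = 0.00233 in edgeR). In the last 500 bases of their principal transcripts, CSTF2 and CSTF2T shared no identical run longer than 9 bases. A run of 41 identical bases lies within the last 500 bases of CSTF2 and farther from the end in CSTF2T.

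CSTF1 encodes the WD-repeat subunit, which binds BARD1. CSTF1 (ENSG00000101138; chr20:56392371-56406369, plus strand, protein-coding) had 37.4, 37.1, 34.2 and 32.4 CPM with DMSO and 28.3, 35.0, 31.2 and 29.3 CPM with dTAGV1. All 4 dTAGV1 libraries lay under the DMSO mean of 35.3 ± 2.43 CPM (SD, n = 4), but the groups overlapped. The log2 fold change was -0.19, with a 95% interval of -0.43 to 0.05 (edgeR, adjusted p = 0.172). That interval still includes the value of CSTF2.

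In cleavage factor IIm, PCF11 encodes the subunit that binds the C-terminal domain of RNA polymerase II and acts in termination as well as cleavage. PCF11 (ENSG00000165494; chr11:83156988-83187451, plus strand, protein-coding) had 168, 167, 176 and 163 CPM with DMSO. With dTAGV1 it had 245, 217, 260.4 and 260.4 CPM, all above every DMSO library. The mean rose from 168 ± 5.38 to 246 ± 20.4 CPM (SD, n = 4 each). As a log2 fold change this was 0.55 ± 0.07 (standard error; adjusted p = 7.94e-07 in edgeR).

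CLP1 encodes the other CFIIm subunit, an RNA kinase that is also found with the tRNA splicing endonuclease. CLP1 (ENSG00000172409; chr11:57648992-57661868, plus strand, protein-coding) was the least abundant of the genes, with 43 to 68 counts in a library. Its levels were 12.8, 13.3, 11.7 and 14.6 CPM with DMSO and 16.7, 20.5, 12.7 and 16.1 CPM with dTAGV1. Replicate 3 of the dTAGV1 group lay within the DMSO range and the other 3 above it. The log2 fold change was 0.33, with a 95% interval of -0.03 to 0.68 (edgeR, adjusted p = 0.105). Without dTAGV1 replicate 3 it was 0.42 (edgeR, adjusted p = 0.0498), and over all alternatives the adjusted p of CLP1 ran from 0.0498 to 0.355.

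RBBP6 was the most abundant of the genes in each library. RBBP6 (ENSG00000122257; chr16:24537693-24572863, plus strand, protein-coding) had 434, 474, 414 and 432 CPM with DMSO and 588, 542, 685 and 635 CPM with dTAGV1. Every dTAGV1 library lay above every DMSO library. The mean rose from 439 ± 25.5 to 612 ± 61.2 CPM (SD, n = 4 each). As a log2 fold change this was 0.48 ± 0.07 (standard error; adjusted p = 5.40e-06 in edgeR).

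**Figure D2:**
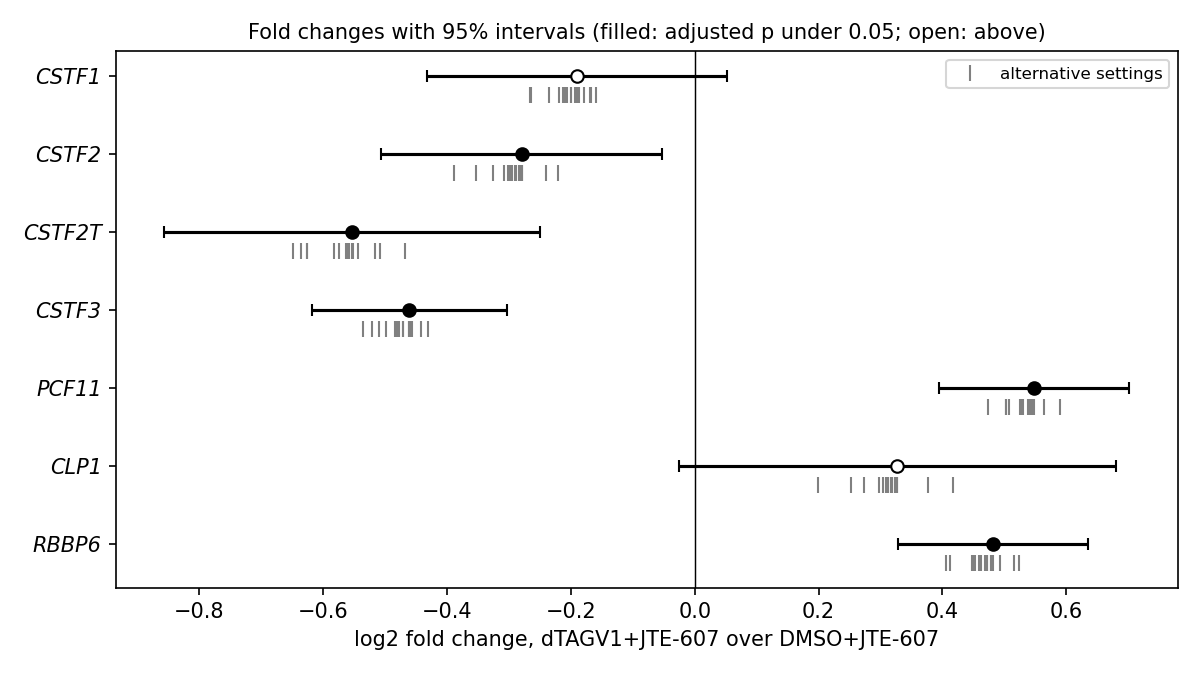
Log2 fold changes of dTAGV1+JTE-607 over DMSO+JTE-607 (horizontal axis) with 95% intervals for the CstF, CFIIm and RBBP6 genes, filled where the adjusted p was under 0.05, and grey ticks for the alternative settings. The CstF genes lie left of 0, from -0.55 for CSTF2T to -0.19 for CSTF1, and PCF11, CLP1 and RBBP6 lie right of 0.

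The direction of each of the 7 genes was the same in every alternative, including scaling by library size alone. That scaling lowered the log2 fold changes by a median of 0.0747, written as a shift of -0.0747, over all genes. Under it PCF11 had a log2 fold change of 0.47, RBBP6 one of 0.41 and CSTF3 one of -0.54.

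The order of levels was RBBP6, CSTF3, PCF11, CSTF2, CSTF1, CSTF2T and CLP1 in the DMSO libraries. No neighbours in this order overlapped in their ranges, although CSTF3, at 177 CPM or more, and PCF11, at 176 CPM or less, were almost level. With dTAGV1 the order of PCF11 and CSTF3 was exchanged. CSTF3 was above PCF11 in each of the 4 DMSO libraries and below it in each of the 4 dTAGV1 libraries. CSTF2T and CLP1, at 15.0 to 21.7 and 12.7 to 20.5 CPM, overlapped with dTAGV1 and did not with DMSO.

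Within complexes, 3 ratios of counts were compared, which do not depend on scaling. CSTF2T made up 33.5%, 33.7%, 35.8% and 36.9% of the summed CSTF2 and CSTF2T counts with DMSO, and 26.5%, 34.4%, 32.0% and 30.3% with dTAGV1. The mean share moved from 35.0% ± 1.68 to 30.8% ± 3.34 (SD, n = 4 each), by -4.16 percentage points, which did not pass (2-sided exact permutation test p = 0.0857, adjusted over 3 ratios 0.129). dTAGV1 replicate 2 lay within the DMSO range. The log2 ratio of CSTF1 to CSTF3 counts averaged -2.42 ± 0.139 in DMSO libraries and -2.15 ± 0.181 in dTAGV1 libraries (SD, n = 4 each; exact permutation test p = 0.0571, adjusted p = 0.129). dTAGV1 replicate 1, at -2.40, lay within the DMSO range. The log2 ratio of PCF11 to CLP1 counts was 3.69 ± 0.174 and 3.91 ± 0.398 (SD, n = 4 each; exact permutation test p = 0.343, adjusted p = 0.343). With 4 libraries against 4 the smallest p this test can give is 0.0286 before adjustment over the 3 ratios.

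**Figure D3:**
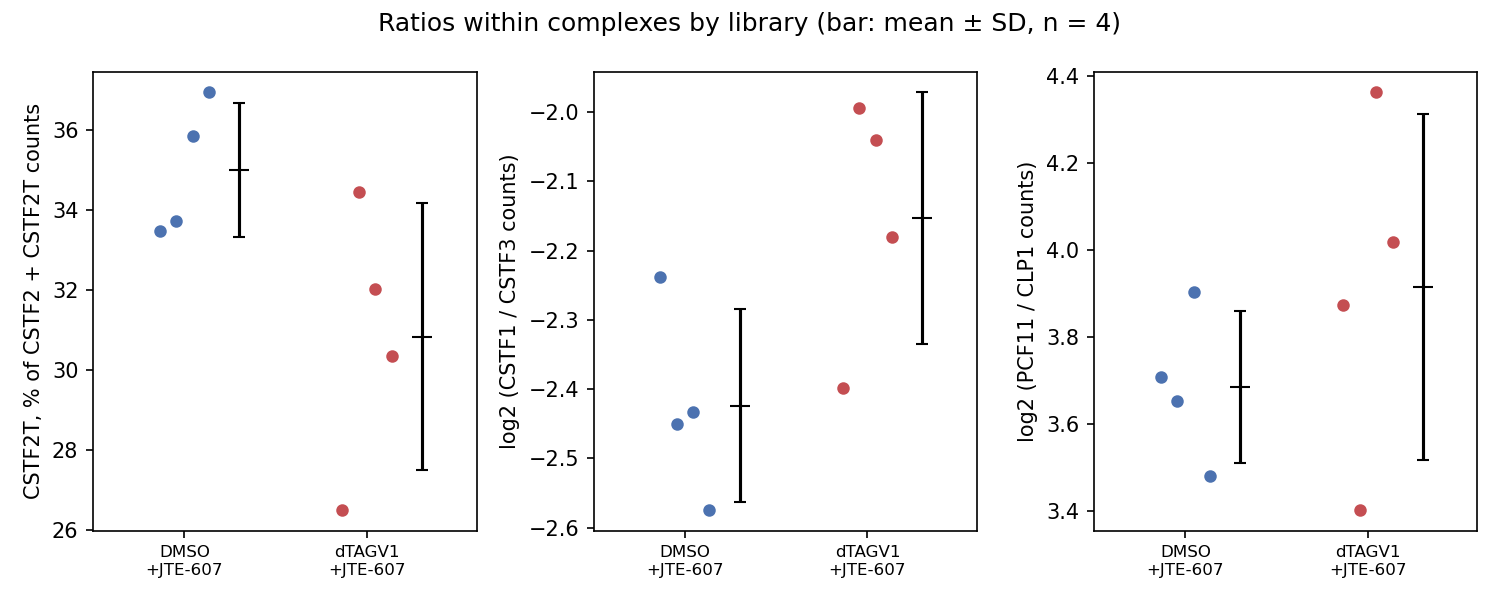
Ratios of counts within complexes by library, with DMSO+JTE-607 in blue and dTAGV1+JTE-607 in red and the mean ± SD beside the points; the vertical axes are a percentage and log2 ratios and do not start at 0. The groups overlap in all 3 ratios.

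Counts of a gene pool all of its annotated transcripts, including those that end early. In GENCODE 29, 4 of the 7 CSTF3 transcripts with a complete 3′ end stop more than 1 kb upstream of the principal one. Of these, a pair of protein-coding transcripts end 56.9 and 56.4 kb upstream and have 2 and 3 exons, where the principal transcript has 21. For PCF11, 2 of 3 complete ends lie over 1 kb upstream. The farther is a model of 1 exon, not annotated as protein-coding, that ends 28.6 kb upstream. For RBBP6, 6 of 10 complete ends do so, among them a protein-coding transcript of 3 exons that ends 23.5 kb upstream. CSTF1 has 3 such ends, none of them protein-coding, and CSTF2, CSTF2T and CLP1 have 0. How the counts of CSTF3, PCF11 and RBBP6 divide between long and short transcripts was not measured, so their fold changes refer to the sum.

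**Figure D4:**
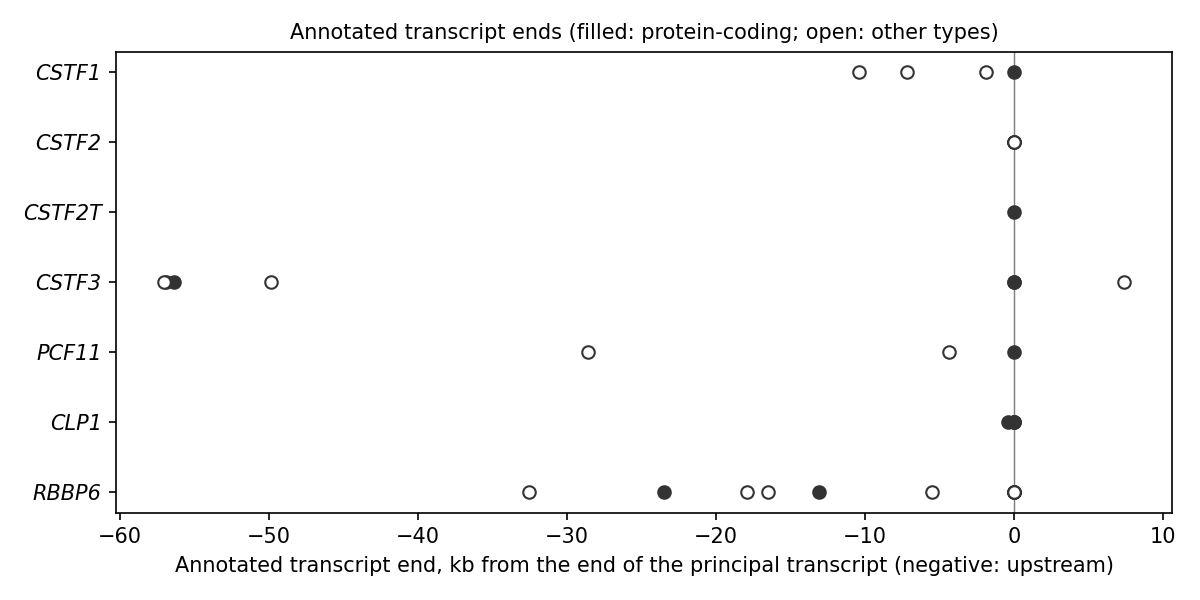
Annotated ends of transcripts with a complete 3′ end, as distance in kb from the end of the principal transcript (horizontal axis, negative upstream), for the CstF, CFIIm and RBBP6 genes; filled points are protein-coding. CSTF3 has ends 49.8 to 57.0 kb upstream and 1 end downstream, while all complete ends of CSTF2 and CSTF2T lie at the principal end.

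Promoters are shown because the 4 CstF genes had values on the same side of 0, although CSTF1 did not pass the test. Whether promoter sequence has a part in the changes was not tested. All 7 genes matched the RefSeq promoters by symbol (build GRCh38.p14, 250 bases before to 50 after the start), with 8 entries since CSTF1 has 2. The motifs searched on both strands were the ETS core CGGAAGT, the cAMP response element TGACGTCA, the CCAAT box CCAAT and the TATA box TATAAA. They were chosen after these promoters had been read, so how they divide the genes was shaped by that choice and carries no test. The ETS core in this exact form was found once for each of the 4 CstF genes and for none of PCF11, CLP1 and RBBP6. Over all promoters, 6.83% of 35116 hold it. Its shorter part CGGAA also occurs in the promoters of PCF11 and CLP1, and in that of RBBP6 on the other strand. The division between the genes therefore depends on the length of the motif. The lines give 60 bases around the ETS core, 5′ to 3′ on the strand of the gene, with the core in capitals.
CSTF1, chr20:56392353-56392412, plus strand: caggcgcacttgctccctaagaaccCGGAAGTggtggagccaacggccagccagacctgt
CSTF2, chrX:100820349-100820408, plus strand: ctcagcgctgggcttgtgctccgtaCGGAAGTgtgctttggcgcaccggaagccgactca
CSTF2T, chr10:51699585-51699644, minus strand: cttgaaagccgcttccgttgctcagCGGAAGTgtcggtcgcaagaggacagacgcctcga
CSTF3, chr11:33161505-33161564, minus strand: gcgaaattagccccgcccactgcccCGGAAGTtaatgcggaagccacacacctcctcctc
The core began 1, 17, 24 and 59 bases upstream of the start in CSTF1, CSTF2, CSTF2T and CSTF3. The cAMP response element was found in the other CSTF1 entry, in CSTF3 and in RBBP6, and 1.85% of promoters hold it. It did not overlap the ETS core. The promoter of RBBP6 is shown whole with the cAMP response element in capitals.
RBBP6, chr16:24539316-24539615, plus strand: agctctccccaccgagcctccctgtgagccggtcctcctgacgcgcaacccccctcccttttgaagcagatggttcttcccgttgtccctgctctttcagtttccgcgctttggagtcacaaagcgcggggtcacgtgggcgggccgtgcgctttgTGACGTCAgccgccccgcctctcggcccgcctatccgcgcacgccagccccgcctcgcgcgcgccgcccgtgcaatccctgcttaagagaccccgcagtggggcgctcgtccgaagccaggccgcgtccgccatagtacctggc
CCAAT occurred for CSTF1, CSTF3 and PCF11, with 34.6% of all promoters holding it, and TATAAA for none of the 7, with 11.5%. A match is a description of letters, and binding of a factor was not measured.

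Genes that overlap these genes or lie within 5 kb were read on their own strand. AURKA, a mitotic kinase, lies 34 bases from CSTF1 on the opposite strand. AURKA fell from 137 ± 46.7 to 62.1 ± 8.56 CPM (SD, n = 4 each), or -1.14 ± 0.26 as a log2 fold change (standard error; adjusted p = 0.00743 in edgeR), beside -0.19 for CSTF1. TCP11L1, which overlaps CSTF3 on the opposite strand, rose from 9.38 ± 2.15 to 22.7 ± 1.89 CPM (SD, n = 4 each), or 1.28 on the log2 scale (edgeR, adjusted p = 7.58e-07). The noncoding LINC00294 (opposite CSTF3), AP000873.2 and PCF11-AS1 (both opposite PCF11) did not pass, with log2 fold changes of -0.36, 0.34 and -0.33. Differences between these pairs were not tested. AP000873.4 and AP000662.1, which overlap PCF11 and CLP1 on the same strand, had at most 2 counts in a library.

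Other parts of the machinery were read from lists written from general knowledge, with earlier results of these data known. The shares called in these lists therefore carry no test. Among 20 other cleavage and polyadenylation factors, 6 were higher and 8 lower, with a median log2 fold change of -0.15. The called share was 70%, beside 57.9% over all genes and 64.7% of genes averaging 100 counts or more. Scaling by library size alone gave 4 higher and 9 lower. PABPN1, a nuclear poly(A) binding protein, rose from 2.70 ± 0.734 to 6.93 ± 0.789 CPM (SD, n = 4 each), or 1.36 on the log2 scale at a low level. PPP1CB, a catalytic subunit of protein phosphatase 1, fell from 108 ± 5.43 to 23.6 ± 1.91 CPM (SD, n = 4 each), or -2.19 on the log2 scale, the lowest of this list. NUDT21, the tagged gene, is counted among the 8 lower. At -1.95 it was the only other member of the list past 1 in absolute value. Adjusted p-values were 0.000175 for PABPN1 and 7.31e-15 for PPP1CB (edgeR).

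Among 11 tested termination factors, which like PCF11 bind the polymerase C-terminal domain, modify it or act after cleavage, 5 were higher and 1 lower, with a median of 0.17. By library size alone, and likewise without a filter on low counts, 3 were higher and 1 lower. Over all genes 29.4% were higher and 28.5% lower. CCNK, the cyclin of CDK12 and CDK13, rose from 75.5 ± 1.62 to 131 ± 2.42 CPM (SD, n = 4 each), or 0.80 on the log2 scale (edgeR, adjusted p = 3.58e-09). RPRD1A, a reader of the C-terminal domain, fell from 34.5 ± 3.05 to 18.4 ± 1.86 CPM (SD, n = 4 each), or -0.90 on the log2 scale (edgeR, adjusted p = 2.22e-06). The twelfth gene of the list, DXO, was not tested because of low counts.

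Of 8 tested partners of CLP1 in tRNA splicing, 2 were higher and 3 lower, with a median of -0.12. The split was 1 higher and 3 lower with RLE scaling, and 0 higher and 4 lower by library size alone. FAM98B, of the tRNA ligase complex, had the lowest log2 fold change at -0.61 (edgeR, adjusted p = 1.38e-05), and RTRAF, of the same complex, the highest at 0.26 (edgeR, adjusted p = 0.00692). TSEN34 was not tested.

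Of 9 factors of histone pre-mRNA processing, in which CSTF2 takes part, 2 were higher and 3 lower, with a median of -0.01. ERI1, an exonuclease that trims histone messages, rose from 14.8 ± 1.97 to 26.4 ± 3.59 CPM (SD, n = 4 each; edgeR, adjusted p = 4.73e-05), a log2 fold change of 0.83. SNRPD3, an Sm ring protein, fell from 47.0 ± 8.62 to 16.3 ± 5.63 CPM (SD, n = 4 each; edgeR, adjusted p = 5.31e-06), a log2 fold change of -1.52.

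Of 9 genes whose products bind CstF or RBBP6, or are known to lie downstream of RBBP6, 2 were higher and 5 lower, with a median of -0.25, and by library size alone 1 was higher and 5 lower. BRCA1, partner of BARD1, fell from 82.8 ± 17.0 to 15.5 ± 5.76 CPM (SD, n = 4 each; edgeR, adjusted p = 4.58e-06), a log2 fold change of -2.40. MCM10, a replication factor linked to RBBP6, fell with a log2 fold change of -1.58 (edgeR, adjusted p = 6.25e-06). MDM2, an interactor of RBBP6 and regulator of p53, rose with one of 0.55 (edgeR, adjusted p = 0.000114), the highest of the list. BARD1, which binds the CSTF1 product, had -0.89. Called shares of the last 4 lists were 54.5%, 62.5%, 55.6% and 77.8% of tested members, beside 57.9% over all genes. Among genes averaging 100 counts or more the share was 64.7%.

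**Figure D5:**
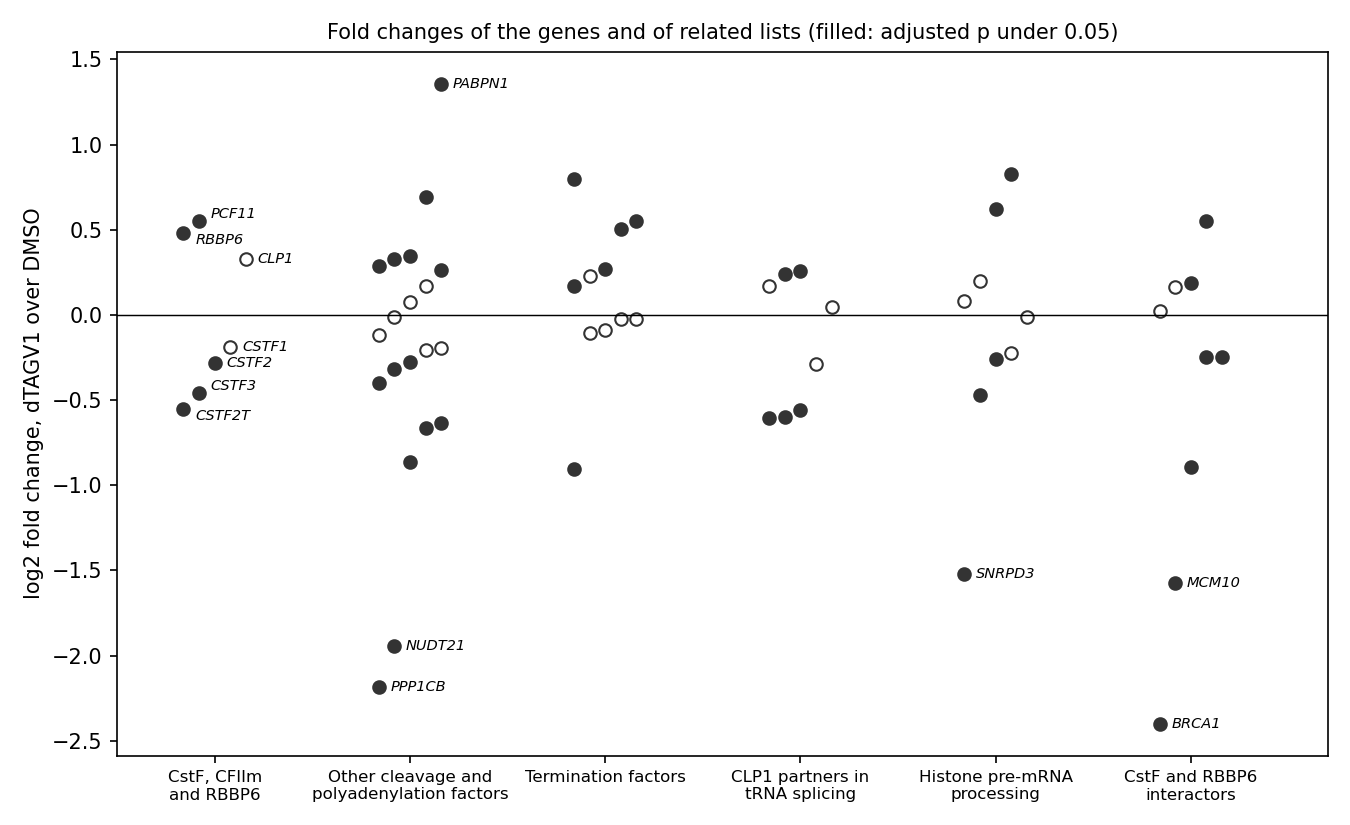
Log2 fold changes of dTAGV1 over DMSO (vertical axis) for the CstF, CFIIm and RBBP6 genes and 5 related lists, 1 point for each tested gene, filled where the adjusted p was under 0.05; horizontal position within a list has no meaning. The 7 genes lie between -0.55 and 0.55, while PABPN1, PPP1CB, NUDT21, SNRPD3, BRCA1 and MCM10 lie beyond 1 in absolute value.

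Genes with the most similar pattern were sought by Pearson's r of log2 CPM over the 8 libraries, among 9247 genes with a symbol and at least 10 CPM. The closest were NUCB2 (r = 0.995) and MT-CYB (0.994) for PCF11, BCL2L2 (0.994) and ARPIN (0.993) for CSTF3, and MNS1 (0.986) and TSGA10 (0.985) for RBBP6. For CSTF2T they were MRPS23 (0.989) and SIX5 (0.987), and for CSTF2 they were PAQR3 (0.981) and POC5 (0.977). Likeness was lower for CSTF1, with TMEM141 (0.964) and RRP9 (0.933), and for CLP1, with ZC3H12C (0.948). These values are the highest among 9247 genes over 8 libraries that share 2 treatment groups, so they describe a pattern and carry no test. The size of change differed even where the pattern was alike: MNS1 had a log2 fold change of 2.18 beside 0.48 for RBBP6.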

How the data were processed

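The deposited values are read counts per gene as whole numbers, 1 table for each library, from Lexogen QuantSeq forward libraries of poly(A) RNA, per the labels' protocols. The submitters' processing notes name FastQC, fastp, STAR, HTSeq, DESeq2 and GRCh38, with no versions or roles. The layout is that of the per-gene output of STAR. Gene annotation and use of molecular identifiers are not given in the sources used here, so PCR copies may be counted. Counts on the sense strand were used, which exceeded the opposite strand by 8.28 to 8.48 times. The 4 totals of reads not assigned to 1 gene, 56.7% to 62.8% of reads, stayed out of library sizes and tests. They hold reads that were unmapped, mapped to several loci, lay in no gene or fit more than 1. Unmapped reads were 27.7% to 28.9% of reads with DMSO and 20.4% to 30.3% with dTAGV1. Of reads mapped to 1 locus, 2.96% to 3.16% fit more than 1 gene.

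A name table gave symbols, with 61481 of the 78932 identifiers. Positions and transcripts are from GENCODE 29 (GRCh38), which may not be the authors' annotation. edgeR 4.0.16 in R 4.3.3 was used with filterByExpr, TMM scaling and robust quasi-likelihood F tests across all genes, with Benjamini-Hochberg adjustment and a threshold of 0.05. The method was tested on simulated data. It recovered 45% of the genes changed by an absolute log2 fold change of 0.5, 86% at 1 and 90% at 2, with 7 false calls. The standard error is the absolute log2 fold change over the square root of F. Alternatives were DESeq2 1.42.0, limma-voom (limma 3.58.1), other scalings and filters, counts irrespective of strand, a replicate block, non-robust dispersions and leaving out each library. Ratios were tested by exact permutation over libraries. Figures used matplotlib 3.10.9.

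Replicates within a group differed by more than sampling noise (chi-square over its degrees of freedom 1.89 to 5.65). Named genes were the 7 genes, NUDT21, the highest and lowest of each list and those past 1 in absolute log2 fold change, tested neighbours, and the 2 most similar genes for each of the 7. BARD1 was named after its values were seen. One gene that this rule gives and 1 transcript end are not reported here. The members and lists were chosen with earlier results of these data known.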

Additional observations from a re-analysis of the deposited data

How the results depend on the processing

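Over 16 results, 245 of 252 alternative values stayed on the same side of the threshold or within 1.5 times a count, and 0 reversed. CSTF2 with DESeq2 had a log2 fold change of -0.29 and missed the threshold (adjusted p = 0.0507). Leaving out each library in turn moved CSTF2 between -0.39 and -0.22, with 4 of 8 fits past the threshold, and CLP1 between 0.20 and 0.42, with 1 of 8 past it. CSTF2T, CSTF3, PCF11 and RBBP6 passed in each alternative that tested them. Among genes averaging 100 counts or more, 6369 were tested and 4120 changed (64.7%), since fewer genes were tested; CSTF2T and CLP1 were not among those tested.

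Replicate numbers are shared between groups, but deviations from the group means correlated at 0.131, -0.0176, 0.0232 and 0.0340 for numbers 1 to 4, so the numbers were not taken to pair the libraries. With the replicate block, 7434 genes changed in place of 7302, and log2 fold changes of CSTF2 (-0.28) and CLP1 (0.32) kept their calls. A paired sign-flip test of the 3 ratios gave an adjusted p of 0.375 for each, where 4 pairs allow no raw p below 0.125. CLP1 and CSTF2T had the fewest counts of the genes described, with means of 55.4 and 88.1 in a library. The part of depth in the calls was not tested.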

Other observations

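Reads on the opposite strand of the genes were few. CSTF1, CSTF2, CSTF2T and CLP1 had 0 in all 8 libraries, and RBBP6 had 1 in all. CSTF3 had 1 to 8 in a library, 22 over the DMSO libraries and 19 over the dTAGV1 libraries. PCF11 had 12 to 30, with 95 over the DMSO libraries and 70 over the dTAGV1 libraries, while its own counts were 2621 and 3569. Counts irrespective of strand were lower than those on the strand of the gene for CSTF3 (4330 against 4946 over all libraries) and PCF11 (5804 against 6190), the 2 genes with tested genes on the opposite strand of their own extent. For the other 5 genes both counts were equal or differed by 1 read.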
